A study of Mus musculus with 4 samples.

Results

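The genes described here belong to the ATF4 pathway and to serine synthesis. Their mRNA was measured in cultured mouse spermatogonial stem cells, which maintain the male germ line, after FGF2 withdrawal with an FGF receptor inhibitor. They are the regulators Atf4, Atf5, Atf3, Ddit3 and Trib3, the glutathione-degrading enzyme gene Chac1, and the amino acid enzyme genes Asns, Phgdh, Psat1 and Shmt2. They were found by the gene name that the scanner files give to each probe, and all 10 genes were present, with 13 of the 41174 probes of the array. No older alias added a probe. Each of the 13 probes was well above background in both channels of all arrays and passed the filter on dim probes, which kept 27730 probes of 18454 genes.

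The treated cells had been kept for 12 h in medium without FGF2 and with SU5402, an inhibitor of the FGF receptor kinases, and the control cells were in normal serum-free culture, which held FGF2 at 5 ng/ml and GDNF at 40 ng/ml. The donor mice of both are labelled as day 5 and as C57/BL6 x DBA/2 F1, and the design text gives 4 biological replicates of each condition. Each of 4 two-colour arrays held 1 treated sample (green) and 1 control sample (red), so every array gave 1 ratio of treated over control. No array had the dyes the other way round, so the treatment and an effect of dye on single genes cannot be told apart. The labels do not say whether feeder cells were in the cultures.

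ATF4 is a leucine zipper transcription factor at the centre of the integrated stress response. Several kinases phosphorylate the translation factor eIF2 when amino acids are short, when unfolded protein builds up or when haem is lacking. General translation then falls while the ATF4 mRNA, held back by upstream open reading frames, is translated more. ATF4 binds DNA with C/EBP partners at composite elements that join parts of both factors' sites, and its known targets include asparagine synthetase, the enzymes that make serine from a glycolytic intermediate, and the mitochondrial enzyme that turns serine into glycine and one-carbon units. The arrays measured mRNA only, so neither eIF2 phosphorylation nor ATF4 protein was seen.

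The promoter windows of the 10 genes, taken from RefSeq (GRCm38.p6, 250 bases before to 50 after the transcript start, 12 windows in all), were searched on both strands for a core of the C/EBP-ATF element, TGATGNAA. It was found in the windows of Atf3, Trib3, Asns and Chac1, and in 3.97% of all 32851 windows of the table. The full cyclic AMP response element, TGACGTCA, was in 1.79% of windows and in none of these genes, and the endoplasmic reticulum stress element (ERSE) was in 0.119% and in none of these genes. No matches overlapped each other. The 4 windows are shown because they hold the matched letters in genes that moved and in genes that did not. Capitals mark the match, which for Atf3, Trib3 and Chac1 is printed as the reverse complement of the searched letters. For Atf3, Asns and Chac1 these are the 250 bases before the start, and for Trib3 they are 30 bases around a match that begins 15 bases into the transcript.
Atf3, chr1:191183334-191183583, minus strand: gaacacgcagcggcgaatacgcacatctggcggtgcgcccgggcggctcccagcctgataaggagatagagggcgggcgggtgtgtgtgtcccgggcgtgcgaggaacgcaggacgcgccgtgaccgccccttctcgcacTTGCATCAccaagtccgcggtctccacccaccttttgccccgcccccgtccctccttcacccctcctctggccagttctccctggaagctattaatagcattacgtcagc
Asns, chr6:7693210-7693459, minus strand: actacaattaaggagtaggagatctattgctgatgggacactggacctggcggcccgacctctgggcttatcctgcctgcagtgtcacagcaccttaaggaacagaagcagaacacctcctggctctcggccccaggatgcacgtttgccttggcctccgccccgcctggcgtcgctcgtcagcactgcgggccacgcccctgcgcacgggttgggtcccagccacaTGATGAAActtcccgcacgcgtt
Chac1, chr2:119350992-119351241, plus strand: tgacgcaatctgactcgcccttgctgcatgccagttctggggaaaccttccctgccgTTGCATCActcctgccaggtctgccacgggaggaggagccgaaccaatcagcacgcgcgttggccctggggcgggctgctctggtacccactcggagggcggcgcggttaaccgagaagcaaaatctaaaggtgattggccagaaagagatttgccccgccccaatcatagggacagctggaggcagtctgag
Trib3, chr2:152344028-152344057, minus strand: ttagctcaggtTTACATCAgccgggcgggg
A match of this kind is a description of the letters in this window and does not show that a factor bound there.

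Atf4, Atf5, Ddit3, Trib3 and Chac1 were higher in treated than in control cells, Shmt2 was lower, and Atf3, Asns, Psat1 and Phgdh were not called. A gene was called higher or lower when limma, fitted over all kept probes, gave an adjusted p under 0.05, and its brightest probe stood for it. By this rule 5 of the 10 genes were higher and 1 was lower. Over all 18454 genes 37.1% were called higher and 30.4% lower. In total 6 of the 10 were called, against 67.5% of all genes, so being called is not something that sets these genes apart. The treated and control signals did not overlap for 7 of the 10 genes, against 61.1% of all genes, and the ratio had the same sign on all 4 arrays for the same number of genes, against 73.5%. One gene, Atf5, was at least 2-fold higher, as were 11.7% of all genes, and none was at least 2-fold lower, where 1.66% of all genes were. The median log2 ratio was 0.27 for the 10 genes and 0.023 for all genes.

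**Figure D1:**
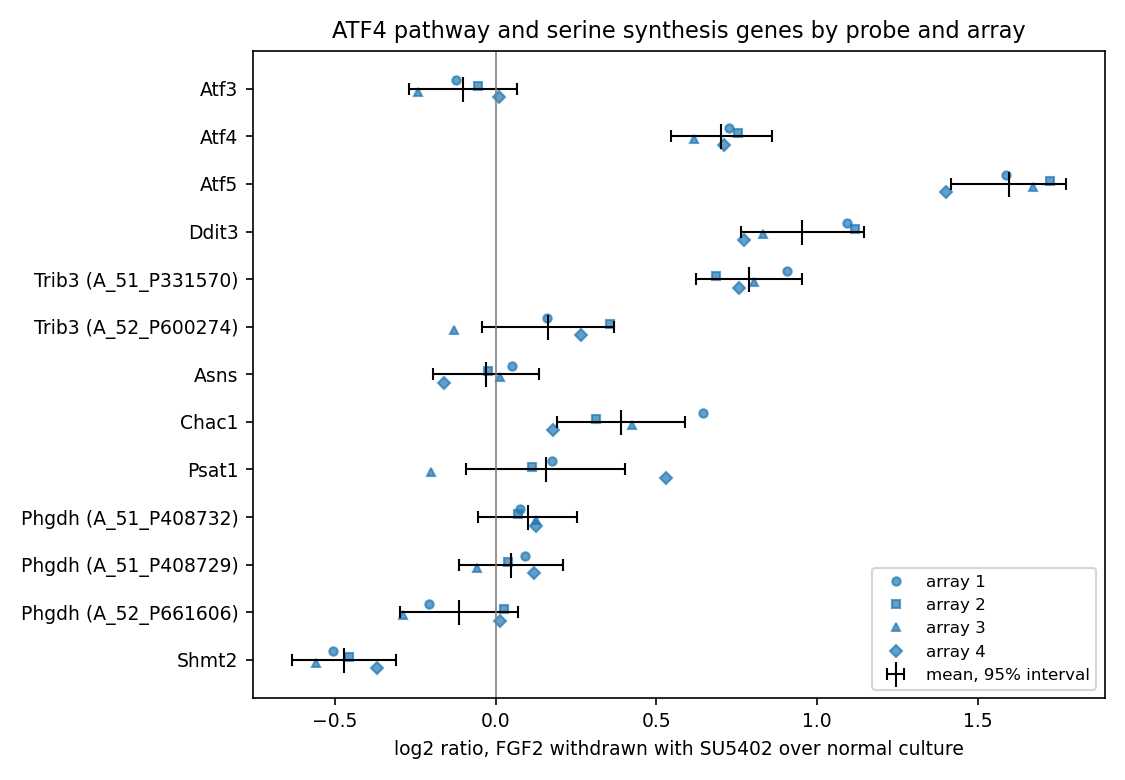
Log2 ratio of treated (FGF2 withdrawn with SU5402) over control (normal culture) for each of the 13 probes. Symbols are the 4 arrays and the black bars the limma mean with its 95% interval. Atf5 lies farthest to the right at 1.60, Shmt2 farthest to the left at -0.47, and the intervals of Atf3, Asns, Psat1 and all Phgdh probes include 0.

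The marker genes of other cell types moved on the same arrays, where 37.1% of all genes were called higher and 30.4% lower. Of 11 Sertoli cell markers 10 were higher and 0 lower, and their summed normalised signal was 476942 to 509471 in treated cells and 108227 to 113502 in control cells. Of 12 fibroblast and feeder markers 11 were higher and 0 lower, with sums of 1684980 to 1806120 in treated and 655452 to 751671 in control cells. All 10 macrophage markers were lower, with sums of 52575 to 65672 in treated and 124804 to 149323 in control cells. The 15 kept spermatogonial markers were all well above background on every array in both conditions, with 9 lower, 0 higher and sums of 264044 to 290273 in treated and 337107 to 368280 in control cells. Of the Sertoli markers 11 were well above background on every array in treated and 9 in control cells. The sums are linear, so the brightest genes weigh most in them. In the Sertoli sum Clu alone had 292753 to 313304 in treated and 79453 to 86165 in control cells. In the macrophage sum Lyz2 alone had 42850 to 55567 in treated and 101411 to 125257 in control cells. In such bulk RNA, fewer cells of a type and less RNA per cell cannot be told apart. The part of these shifts in the results on the ATF4 pathway was not tested.

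Of the 4 transcription factor genes among the 10, Atf5 had the highest ratio. Atf5, a leucine zipper factor of the same family as ATF4 that is also regulated through upstream reading frames, had normalised signals (in scanner units) of 50663, 40006, 48771 and 41392 in treated cells of replicates 1 to 4, against 16872, 12111, 15313 and 15670 in control cells. Every treated value was above every control value. It was 3.02-fold higher (log2 1.60, SE 0.079, n = 4, limma adjusted p = 2.29e-07), and 95.3% of all genes had a lower ratio. The probe for it maps to chromosome 7 at 52067718 to 52067777 (mm9).

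Atf4 itself had 4345, 4487, 4387 and 4359 in treated cells, against 2626, 2660, 2860 and 2664 in control cells. The groups were far apart and the arrays close together, with log2 ratios between 0.62 and 0.75. The mRNA was 1.63-fold higher (log2 0.70, SE 0.070, n = 4, limma adjusted p = 2.13e-05). Its probe is on chromosome 15 at 80087079 to 80087138 (mm9). Atf3, a stress-induced factor that ATF4 is known to activate, had 1102, 1201, 1042 and 1192 in treated cells, against 1200, 1249, 1232 and 1183 in control cells. The groups overlapped, and the log2 ratio of -0.10 (SE 0.074) had a 95% interval of -0.27 to 0.066 (limma adjusted p = 0.25). With the scanner software's LogRatio, under which the median of all genes lies at -0.12 in place of 0.023, Atf3 was called lower at -0.33 (limma adjusted p = 0.00979).

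Ddit3 encodes CHOP, a C/EBP-family factor linked to cell death under prolonged stress. It had 3077, 3107, 3051 and 3087 in treated cells, against 1442, 1431, 1716 and 1806 in control cells. The treated values lay within a narrow band above all control values. The fold was 1.94 (log2 0.95, SE 0.085, n = 4, limma adjusted p = 1.03e-05). The probe's coordinates on chromosome 10, 126732518 to 126732821 (mm9), cover 304 bases of the genome.

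Trib3, a pseudokinase that is induced by ATF4 and CHOP and restrains them in turn, had 2 probes that gave different answers. The brighter one, at position 1797 of the transcript and on chromosome 2 at 152163355 to 152163414 (mm9), had 6072, 5377, 5595 and 6052 in treated cells, against 3240, 3346, 3208 and 3582 in control cells. By this probe Trib3 was 1.73-fold higher (log2 0.79, SE 0.073, n = 4, limma adjusted p = 1.32e-05). The other probe, at position 1127 and on chromosome 2 at 152164025 to 152164084 (mm9), had 602, 753, 709 and 732 in treated cells, against 539, 588, 776 and 609 in control cells. Its groups overlapped, replicate 3 ran the other way, and its log2 ratio of 0.16 (SE 0.091) was not called (limma adjusted p = 0.142). Without replicate 3 it was called higher, at 0.26 (limma adjusted p = 0.0272). The ratio of the brighter probe exceeded that of the other on all 4 arrays, by 0.62 ± 0.27 on the log2 scale (SD, n = 4). The exact sign permutation test of this difference gave p = 0.125 (two-sided), the smallest p that 4 arrays can give.

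Chac1 encodes an enzyme that breaks down glutathione and is a known target of ATF4. Its probe, on chromosome 2 at 119179990 to 119180049 (mm9), had 6191, 4690, 4922 and 4695 in treated cells, against 3961, 3775, 3671 and 4145 in control cells. All treated values were above all control values, with the highest in replicate 1. The rise was 1.31-fold (log2 0.39, SE 0.088, n = 4, limma adjusted p = 0.00357), and the log2 ratio of single arrays varied from 0.18 to 0.64. The call ended with the scanner LogRatio (0.24, limma adjusted p = 0.0563) and with median-centred processed signals (0.28, limma adjusted p = 0.0981).

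**Figure D2:**
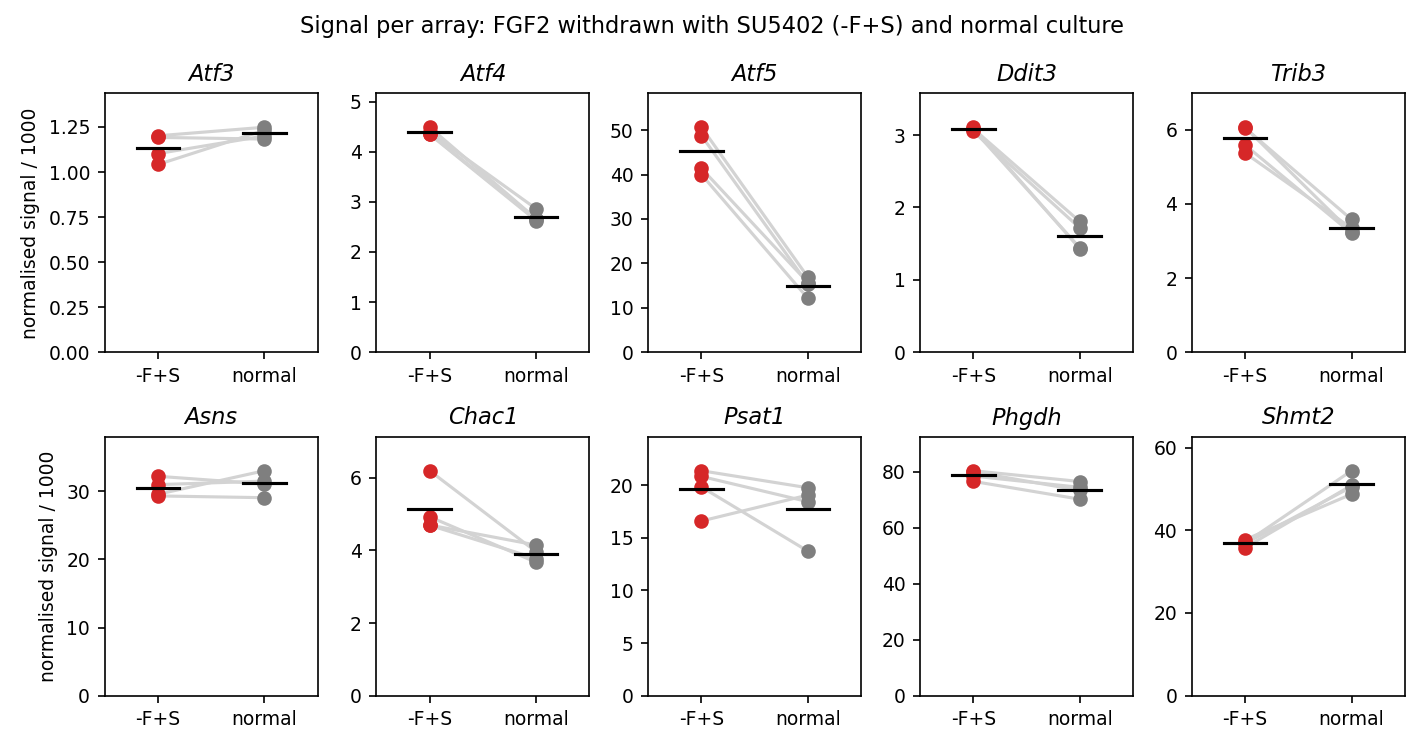
Normalised signal, in units of 1000, for each of the 10 genes (brightest probe), with treated cells (-F+S) on the left and control cells (normal) on the right of each panel. Points are the 4 arrays, grey lines join the 2 samples of an array and black bars are means. Atf4, Atf5, Ddit3, Trib3 and Chac1 lie higher in treated cells, and Shmt2 lies lower.

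Of the 4 genes for enzymes of amino acid metabolism, Shmt2 fell and the others were not called. Asns, asparagine synthetase, had 32214, 30986, 29327 and 29573 in treated cells, against 31075, 31504, 29070 and 33027 in control cells. The groups overlapped throughout. The log2 ratio was -0.030 (SE 0.072, n = 4, limma adjusted p = 0.733), and its 95% interval of -0.19 to 0.13 lies below the ratios of Atf4, Atf5, Ddit3 and the brighter Trib3 probe. With median centring the log2 ratio of Asns was -0.20 and not called (limma adjusted p = 0.289). Its probe is on chromosome 6 at 7625194 to 7625253 (mm9).

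Phgdh, which catalyses the first step of serine synthesis, had 3 probes and none was called. By the brightest one, on chromosome 3 at 98117098 to 98117157 (mm9), the signals were 78400, 80304, 76510 and 79936 in treated cells, against 74376, 76458, 70145 and 73286 in control cells. The lowest treated and the highest control value were nearly equal, and the log2 ratio was 0.099 (SE 0.068, limma adjusted p = 0.223), which turned to -0.27 (limma adjusted p = 0.158) when arrays were centred on their median and no loess was used. The second probe shares part of the first one's sequence region and gave 0.047 (SE 0.071, limma adjusted p = 0.579). The last probe, whose coordinates on chromosome 3 run from 98118326 to 98119034 (mm9), gave -0.11 (SE 0.082, limma adjusted p = 0.241), and with the scanner LogRatio it was called lower at -0.26 (limma adjusted p = 0.0314).

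Psat1, the transaminase of the next step, had 20817, 21359, 16586 and 19816 in treated cells, against 18419, 19742, 19051 and 13718 in control cells. It was the most variable of the 10 genes, with an SD of 0.30 between the log2 ratios of the arrays. Replicate 3 was at -0.20 and replicate 4 at 0.53. The mean of 0.16 (SE 0.11, n = 4, limma adjusted p = 0.237) had a 95% interval of -0.093 to 0.40, which includes both 0 and the ratio of Chac1. Under the 14 alternatives the ratio of Psat1 stayed positive, at 0.030 to 0.27, and was never called (lowest limma adjusted p = 0.0509). The probe is on chromosome 19 at 15979970 to 15980029 (mm9).

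Shmt2, the mitochondrial hydroxymethyltransferase that splits serine into glycine and a one-carbon unit, was the member that fell. It had 35810, 36815, 36919 and 37724 in treated cells, against 50862, 50496, 54407 and 48739 in control cells. Every treated value was below every control value. The log2 ratio was -0.47 (SE 0.071, n = 4, limma adjusted p = 0.000316), a 1.39-fold lower level, and its probe is on chromosome 10 at 126954811 to 126954870 (mm9). With median centring the ratio of Shmt2 was -0.72. Only 13.9% of all genes had a lower ratio.

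Set side by side on each array, the lowest log2 ratio among Atf4, Atf5, Ddit3 and Trib3 was 0.73, 0.68, 0.62 and 0.71 in replicates 1 to 4. The highest ratio among Asns, Psat1, Phgdh and Shmt2 was 0.18, 0.11, 0.13 and 0.53. On all 4 arrays these 4 regulators, with Trib3 by its brighter probe, thus stood above the 4 enzymes. The gap was smallest in replicate 4, where the ratio of Psat1 was high and its control signal, 13718, was its lowest. The regulator Atf3 was left out of this set. Its ratios were -0.12, -0.056, -0.24 and 0.011, below the highest of the 4 enzymes on each array. Chac1, which also encodes an enzyme, was left out as well. Its ratios were 0.64, 0.31, 0.42 and 0.18, below the 4 regulators on each array. In replicates 1 to 3 Chac1 was above the highest of the 4 enzymes. The second Trib3 probe was at 0.16, 0.36, -0.13 and 0.27, above the highest of the 4 enzymes in replicate 2 only. Because Atf3 and Chac1 were left out, this grouping follows the roles of the genes only in part. It was made with their values known, and it was not tested.

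Lists of related genes were counted in the same way, and Cebpb, Cebpg, Ppp1r15a, Cth and Atf6 are each in more than 1 list. The shares over all genes, to be set beside the counts of each list, were 37.1% called higher and 30.4% called lower. Sensors and regulators of eIF2 phosphorylation went both ways. Of 14 kept genes 4 were higher and 6 lower. Their median log2 ratio was -0.18. Impact, which restrains the amino acid sensor kinase GCN2, was at 1.29 (SE 0.078), and Dnajc3, an inhibitor of the eIF2 kinases PERK and PKR, at 0.84 (SE 0.089), both higher. Eif2ak1, the haem-regulated eIF2 kinase, was called lower at -0.50 (SE 0.082), and its second probe was called lower at -0.35. Its dimmest kept probe was called higher at 0.56, so its direction depends on the probe. Eif2b5, a subunit of the exchange factor that phosphorylated eIF2 blocks, was lower at -0.46 (SE 0.092). Eif2ak3, which encodes PERK, was at -0.19 and not called (limma adjusted p = 0.108), though it was called lower with the scanner LogRatio (-0.37, limma adjusted p = 0.0137) and without replicate 2 (-0.30, limma adjusted p = 0.0284). Eif2ak4, which encodes GCN2, was at 0.17 and not called by its brightest probe (limma adjusted p = 0.148), with another probe called lower at -0.31. A further probe averaged 0.47 (limma adjusted p = 0.0432), but its ratios were -0.026, -0.032, 0.94 and 0.99 in replicates 1 to 4, so only replicates 3 and 4 were higher. The brightest probe turned to -0.032 with the scanner LogRatio.

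Leucine zipper factors that can pair with ATF4 or belong to related families were next. Of 13 kept genes 7 were higher and 2 lower, and the median was 0.33. Cebpd, a C/EBP factor of acute-phase responses, was at 1.65 (SE 0.086) and the AP-1 subunit gene Jun at 1.01 (SE 0.072). Cebpb, a C/EBP partner of ATF4, was higher at 0.72 (SE 0.083), though its second probe was at 0.30 and not called (limma adjusted p = 0.0769), with ratios of 0.089, 0.92, 0.078 and 0.13 in replicates 1 to 4. With median centring the brightest Cebpb probe was at 0.43. Fosl1, an AP-1 subunit, was lower at -0.66 (SE 0.079), as was Batf, a leucine zipper factor of lymphocytes and myeloid cells, at -0.64 (SE 0.070).

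Of 30 further known targets of ATF4 that were kept, 21 were higher, 8 were lower and 1 was not called. Their median log2 ratio was 0.56. Stc2, a secreted glycoprotein, was at 1.46 (SE 0.075), and Herpud1, which acts in the degradation of misfolded proteins of the endoplasmic reticulum, at 1.39 (SE 0.078). The largest falls were in the chains of the large neutral amino acid transporter, Slc7a5 at -1.10 (SE 0.092) and Slc3a2 at -0.64 (SE 0.078). The second probe of Slc3a2 gave -0.37 and was called lower as well, and with median centring the first was at -1.01. Among the 8 solute carriers of the list, a subset chosen after its values were seen, 6 were lower and 2 higher, and the median was -0.47. Among the other 22 genes 19 were higher and 2 lower, and the median was 0.74. The sensitivity of this split to the processing was not tested. The pair of genes lower among these 22 were Cth, of cysteine synthesis, at -0.43 and Ppp1r15a at -0.40, which encodes a phosphatase subunit that removes the phosphate from eIF2. Both were named after their values were seen, and neither was called with median centring (Cth at -0.35, limma adjusted p = 0.0589, and Ppp1r15a at -0.35, limma adjusted p = 0.0523). Cth was at -0.67 with the scanner LogRatio.

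The transfer RNA synthetases that ATF4 is known to induce included 2 higher and 4 lower genes among 12, with a median of -0.15. Nars was at 0.82 (SE 0.076) and Mars1 at -1.01 (SE 0.095), with a second Mars1 probe at -1.07. Yars was lower at -0.56 (SE 0.088). Tars was called higher at 0.27 (SE 0.083) by its brightest probe, while its second probe was at -0.087 and not called (limma adjusted p = 0.453). The call on the brightest probe ended with median centring (0.051, limma adjusted p = 0.803), the scanner LogRatio (0.13, limma adjusted p = 0.246), median-centred processed signals (0.17, limma adjusted p = 0.323) and without replicate 3 (0.20, limma adjusted p = 0.0676).

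The other enzymes of serine and one-carbon metabolism, not all of which act on folates, went both ways. Of 28 kept genes 10 were higher and 12 lower, against 37.1% and 30.4% of all genes, and the median was 0.016. Psph, the phosphatase of the last step of serine synthesis, was at 0.043 and not called (limma adjusted p = 0.665), and its second probe was at 0.058. The sign of the brightest Psph probe turned under 4 of the alternatives, with values between -0.084 and -0.014. None of the 3 enzymes of serine synthesis, Phgdh, Psat1 and Psph, was thus called in either direction by its brightest probe. Mthfd2, the mitochondrial enzyme that acts on the one-carbon unit released by Shmt2, was lower at -0.42 (SE 0.079). Shmt1, the cytosolic counterpart of Shmt2, was lower at -0.50 (SE 0.075) and was named after its value was seen. Among the higher genes were Aldh1l1, which removes one-carbon units from folate, at 2.15 (SE 0.074), and Mthfd2l, a relative of Mthfd2, at 1.23 (SE 0.11), with 0.54 by its second probe. Fpgs, which adds the glutamate tail of folates, was at -0.69 (SE 0.073).

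The arms of the unfolded protein response other than that of ATF4 had 7 higher and 4 lower genes among 18, with a median of 0.17. Atf6, the membrane-bound sensor and factor of one arm, was higher at 0.70 (SE 0.086), and Sel1l, of endoplasmic reticulum-associated degradation, at 0.73 (SE 0.11), with 0.27 and no call by its second probe. Hspa5, the main chaperone of the compartment, was called higher at 0.31 (SE 0.093, limma adjusted p = 0.0152), but turned to -0.071 with median centring (limma adjusted p = 0.733). Its call also ended with the median signal of the spot (0.23, limma adjusted p = 0.0671), without replicate 2 (0.30, limma adjusted p = 0.0580) and without replicate 4 (0.21, limma adjusted p = 0.0565), and its ratio was 0.49 with median-centred processed signals. Derl3, of the same degradation route, was lower at -1.12 (SE 0.084), and Creld2, a stress-induced protein of the compartment, at -0.38 (SE 0.076). Creld2 was at -0.26 and not called with median-centred processed signals (limma adjusted p = 0.130), while median centring gave -0.75.

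**Figure D3:**
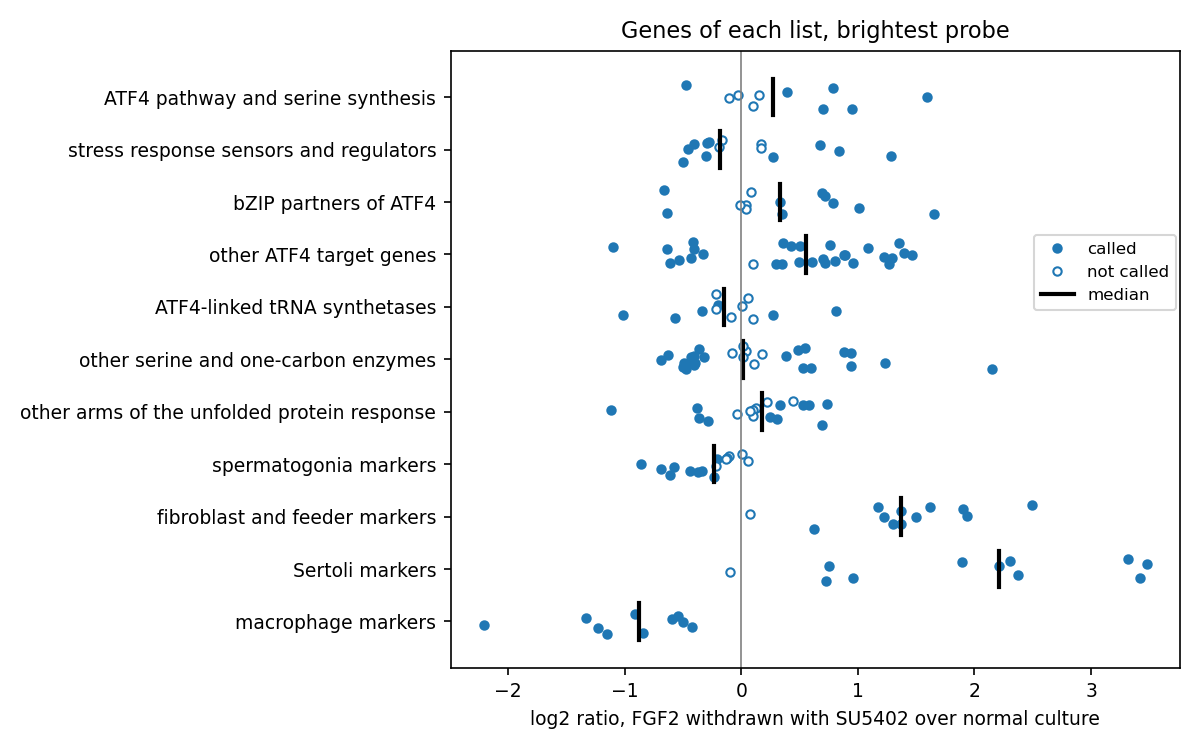
Log2 ratio of treated over control for the genes of each list (rows), by the brightest probe. Filled points were called by limma at an adjusted p under 0.05, open points were not, and black bars are medians. The further ATF4 targets spread from -1.10 to 1.46 around a median of 0.56, while the Sertoli and fibroblast markers lie mostly to the right and the macrophage markers to the left.

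**Figure D4:**
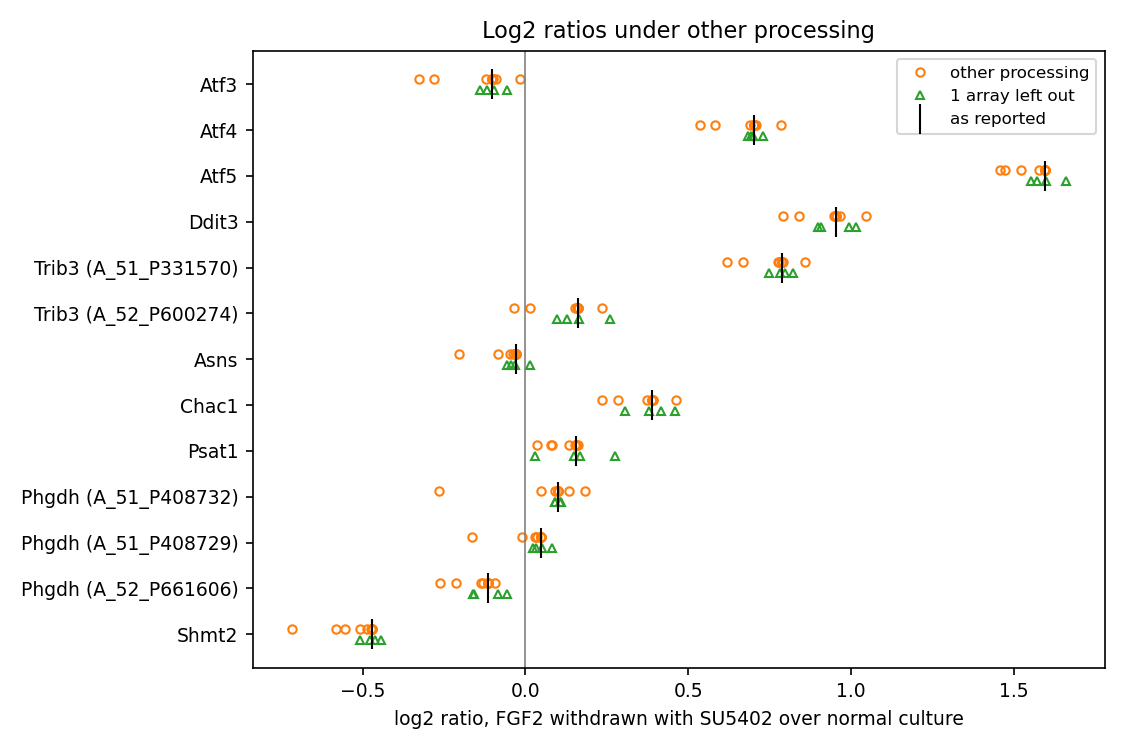
Log2 ratio of each of the 13 probes as reported (black bar), under other processing (circles) and with 1 array left out (triangles). Atf4, Atf5, Ddit3 and the brighter Trib3 probe stay at or above 0.54 and Shmt2 at or below -0.44, while probes of Phgdh, the second Trib3 probe and Asns take both signs.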

How the data were processed

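RNA of treated and control cultures was measured on 4 two-colour Agilent arrays, and the file headers and processing notes name Feature Extraction 10.5.1.1 as the software. The deposited mean and median spot signals and local backgrounds are intensity values without normalization, and the deposited processed signals are the same intensity after the software took off the background and balanced the dyes. The LogRatio is log10 of red over green, per the file headers. The series matrix, deposited by the authors, holds log2 values that equalled log2 of green over red processed signal within 0.01 for 100% of 41174 probes in all 4 columns, that is treated over control, uncentred, with medians of -0.26, 0.012, 0.11 and -0.058.

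Background was corrected by normexp (offset 50) and log2 ratios were normalised within arrays by loess, with the 1639 control spots of each array at weight 0. Between 141 and 171 outlier spots per array were left out, no spot was saturated, and spots of a probe were averaged. A probe was kept if 3 or more of the 4 arrays had it well above background in one and the same channel. Per array, 26613 to 28496 probes passed that mark for treated and 25533 to 27891 for control RNA. Log2 ratios were tested against 0, two-sided, with lmFit and eBayes of limma 3.58.1 (R 4.3.3) over all kept probes, with Benjamini-Hochberg adjustment. Precision is limited by the number of arrays. The p-values weigh each mean ratio against the spread between these arrays, with a variance that eBayes moderates over all kept probes. A constant effect of dye on a gene would enter them as well. Signals per channel were taken after Aquantile scaling. The fit was tested on simulated log2 ratios with known shifts and independent noise. These held no effect of dye, so that test cannot bear on one. Gene names were updated through RefSeq accessions and symbols, and the brightest kept probe stood for a gene. The genes, lists and tests were chosen with earlier results of these data known. Named from each list were up to 2 largest rises and 2 largest falls among called genes with 1 sign on all arrays, and Eif2ak3, Eif2ak4, Psph, Mthfd2, Hspa5 and Cebpb. The result of 1 gene that this rule picks is not reported here. Alternatives covered normalisation, background, spot signal, filter, probe choice, the variance prior and each array left out.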

Additional observations from a re-analysis of the deposited data

Results flagged for a closer look

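The 4 log2 ratios of all 62 kept probes of the genes named, 13 of them of the ATF4 pathway and serine synthesis genes, were each searched for an array far from the other arrays. There were 5 such probes, where chance gives about 1 in 20, and none of the 13 was among them. Slc7a5 was at -0.78 in replicate 2, against values from -1.22 to -1.19 on the other arrays. Mthfd2l was at 1.65 in replicate 3, against values from 1.04 to 1.14 on the other arrays. One of the 4 probes of Dnajc3 was at 1.42 in replicate 3, against values from 0.75 to 0.86 on the other arrays. Shmt1 was at -0.33 in replicate 4, against values from -0.56 to -0.54 on the other arrays. The second probe of Cebpb was at 0.92 in replicate 2, against values from 0.078 to 0.13 on the other arrays.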

How the results depend on the processing

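The calls of Atf4, Atf5, Ddit3, the brighter Trib3 probe and Shmt2 and their directions held under all 14 alternatives run for each, with log2 ratios of 0.54 to 0.78, 1.46 to 1.66, 0.79 to 1.05, 0.62 to 0.86 and -0.72 to -0.44. The count of higher genes among the 10 was 4 to 5 and that of lower genes 1 to 2 (2 with the scanner LogRatio, which adds Atf3), and both were 5 and 1 with any array left out. On second brightest probes, which only Trib3 and Phgdh have, 0 were higher and 0 lower. Signs that turned without a call were those of Phgdh with median centring (-0.27 and, for the second probe, -0.16), of its second probe (-0.011) and the second Trib3 probe (-0.034) with the scanner LogRatio, of Asns without replicate 4 (0.014, with -0.057 the lowest value when 1 array is left out), of Tars (-0.087) on second brightest probes, of Hspa5 with median centring (-0.071), of Eif2ak4 (-0.032) with the scanner LogRatio, and of Psph with median centring (-0.064), the scanner LogRatio (-0.084), median-centred processed signals (-0.037) and without replicate 3 (-0.014; 0.12 at most with 1 array left out). Eif2ak4 turned with a call on its second brightest probe (-0.31). The scanner LogRatio made 41.7% of called genes higher, in place of 55.0%.

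Counts in the related lists moved by over 1.5 times as follows; the cause was not tested, except that second brightest probes exist for fewer genes. Median centring gave 5 lower ATF4 targets, 1 higher synthetase and 3 higher genes of the other unfolded protein response arms. The scanner LogRatio gave 1 higher and 7 lower synthetases, and median-centred processed signals 1 higher. Second brightest probes gave 2 higher stress response regulators, 4 higher and 0 lower zipper factors, 5 higher and 1 lower ATF4 targets, 0 higher synthetases, 5 higher and 3 lower one-carbon enzymes, and 4 higher and 0 lower genes of the other arms. With 1 array left out, higher genes of the other arms numbered 4 (without replicate 2) to 7 and higher synthetases 1 (without replicate 3) to 2.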
